A study of Caenorhabditis elegans with 24 samples.

Results

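The genes described here are xdh-1 (WBGene00010083), aldo-1 (WBGene00011474), idpp-2 (WBGene00015153), D2045.9 (WBGene00008426) and epic-2 (WBGene00019540), 5 protein-coding genes of Caenorhabditis elegans among 46726 annotated features, of which 8869 had enough small RNA to be compared. They were selected on their measured values in every library, namely antisense small RNA levels that stood above wild type and both mutants by generation F25, so their levels and their differences from wild type are given as a description without a test. The study sequenced small RNAs from whole young adults grown at 20 °C on E. coli OP50, in 24 libraries, with 2 biological replicates in each of 12 groups. The groups were wild type (N2), the meg-3 meg-4 double mutant (strain JH3225, written meg-3/4 here), the hrde-1; meg-3 meg-4 triple mutant (strain YY1512), and descendants, which were wild-type animals derived from an outcross of meg-3/4 and were taken at each generation from F3 to F7 and then at F10, F15, F20 and F25. No group of hrde-1 mutants with intact meg-3 and meg-4 was analysed here, so the triple mutant was compared with meg-3/4, which shares the meg-3 and meg-4 mutations. Whether libraries with the same replicate number belong to 1 line of descent is not stated in the labels, so a difference below between replicates 1 and 2 across generations compares libraries by their number and is not known to compare lines.

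In the worm germline, RNA-dependent RNA polymerases copy target transcripts into short antisense RNAs, the 22G-RNAs. These are bound by Argonaute proteins and can lower the expression of genes they match. Germ granules, condensates beside the germ cell nuclei, hold much of this machinery, and MEG-3 and MEG-4 are disordered proteins that build them in the embryo. The Argonaute HRDE-1 acts in the nucleus, where it binds such small RNAs and is needed for their inheritance, so a gene can keep its small RNAs for generations after the event that started them. XDH-1 is a xanthine dehydrogenase, a molybdenum cofactor enzyme that ends purine breakdown in uric acid, and ALDO-1 is a fructose-bisphosphate aldolase of glycolysis. No role is given here for idpp-2, D2045.9 or epic-2. D2045.9 is placed below in a list of collagen hydroxylation and glycosylation genes, a placing that was not tested.

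Values are the authors' normalized counts per gene and library. Read depth ran from 392785 (F10 replicate 1) to 3420345 reads, and the other shallow library, F4 replicate 2, had 395527. In F4 replicate 2 the 5 genes had 7 to 13 reads each, and in F10 replicate 1 they had 19 to 53, so a value from either library carries a wide counting error. Reads had been counted antisense to the annotated gene: at 26 of 28 microRNA genes with an annotated non-coding feature opposite, the opposite feature held more. As a check of the labels, small RNAs against meg-3 were at 42.8 and 64.2 in wild type, at most 14.4 in the 4 mutant libraries and at least 46.5 in the 18 descendant libraries, and those against hrde-1 were at 628.5 and 599.9 in the triple mutant against at least 1115 in every other library. Whole animals were sampled, so fewer cells carrying a small RNA and less small RNA per cell cannot be told apart.

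The 5 genes lie at separate places. By the Ensembl annotation of WBcel235, xdh-1 is on chromosome IV, bases 14401114 to 14412894, minus strand, with 4155 exon bases, and epic-2 is on the same chromosome at 1720790 to 1723072, plus strand, with 2232. aldo-1 is on III at 13563346 to 13564937, minus strand, with 1253 exon bases, and D2045.9 is on III at 10475245 to 10479790, plus strand, with 2694. idpp-2 is on V at 1635 to 6634, plus strand, with 1359 exon bases, and is the first protein-coding gene at that end of the chromosome. The median protein-coding gene among the 7803 compared had 1492 exon bases, so aldo-1 and idpp-2 are a little shorter and the other 3 are longer. The ends of idpp-2 and of ife-3, an eIF4E isoform gene on the opposite strand, overlap, and D2045.9 overlaps D2045.7 on its own strand. The sources used here do not give the build to which the reads were mapped.

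The span of xdh-1 is rich in piRNA genes, which encode the primary guide RNAs of the Argonaute PRG-1. It overlaps 66 of them, 62 in introns only and 4 touching an exon, with 37 on the plus and 29 on the minus strand. By the count of piRNA genes whose low-coordinate end lies inside, 64 for xdh-1, only 7 of the 7803 compared protein-coding genes, xdh-1 among them, hold as many. By the same count, 3.33% of these 7803 genes and 10.2% of those on chromosome IV hold a piRNA gene. None lies inside aldo-1, idpp-2, D2045.9 or epic-2. Reads counted antisense to these 66 features came to 2062 over all 24 libraries, 2038 of them at the intronic 21ur-6050 (14408218 to 14408238, plus strand). The 21ur-6050 values were 103.0 and 82.3 in wild type and 126.0 and 77.8 at F25, so the libraries overlapped (log2 difference 0.10, limma adjusted p = 0.953).

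Small RNAs against xdh-1 were close to absent in wild type, at 2.89 and 3.50 normalized counts from 5 and 6 reads. They were at 28.5 and 12.6 in F3, 55.0 and 39.9 in F4, 66.7 and 74.9 in F5, 85.8 and 109.7 in F6, and 98.7 and 145.1 in F7, replicate 1 first. Every descendant library was above both wild-type libraries, as is true at F3 alone for 31.1% of all features and at F25 for 19.4%, and the group means grew at each of these 5 generations. Later values were 103.9 and 223.1 in F10, 149.7 and 306.1 in F15, 143.4 and 261.5 in F20, and 171.4 and 285.7 in F25. The F25 mean was 228.5 ± 80.8 (SD, n = 2), 71.4 times the wild-type mean and 11.1 times the F3 mean, and the log2 difference from wild type on the log2(value + 5) scale was 4.79 (SE 0.39). The highest library outside the descendants was the triple mutant replicate 1 at 45.9, and from F5 on both libraries of every generation were above it.

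Small RNAs against aldo-1 were at 9.84 and 11.1 in wild type. They were at 107.6 and 49.7 in F3, 213.8 and 39.9 in F4, 125.7 and 55.0 in F5, 121.0 and 53.1 in F6, and 141.5 and 39.7 in F7. All of these were above wild type, but they show no order by generation, and replicate 1 was above replicate 2 each time. In F10 the values were 289.8 and 224.3, in F15 277.9 and 251.7, in F20 186.2 and 119.6, and in F25 362.5 and 163.1. The F25 mean was 262.8 ± 141 (SD, n = 2), 25.1 times wild type (log2 4.01, SE 0.62) but only 3.34 times F3, and the highest group mean was at F15. The triple mutant reached 121.6, so F20 replicate 2 was still below it and both libraries were above all 6 wild-type and mutant libraries in F10, F15 and F25 alone.

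**Figure D1:**
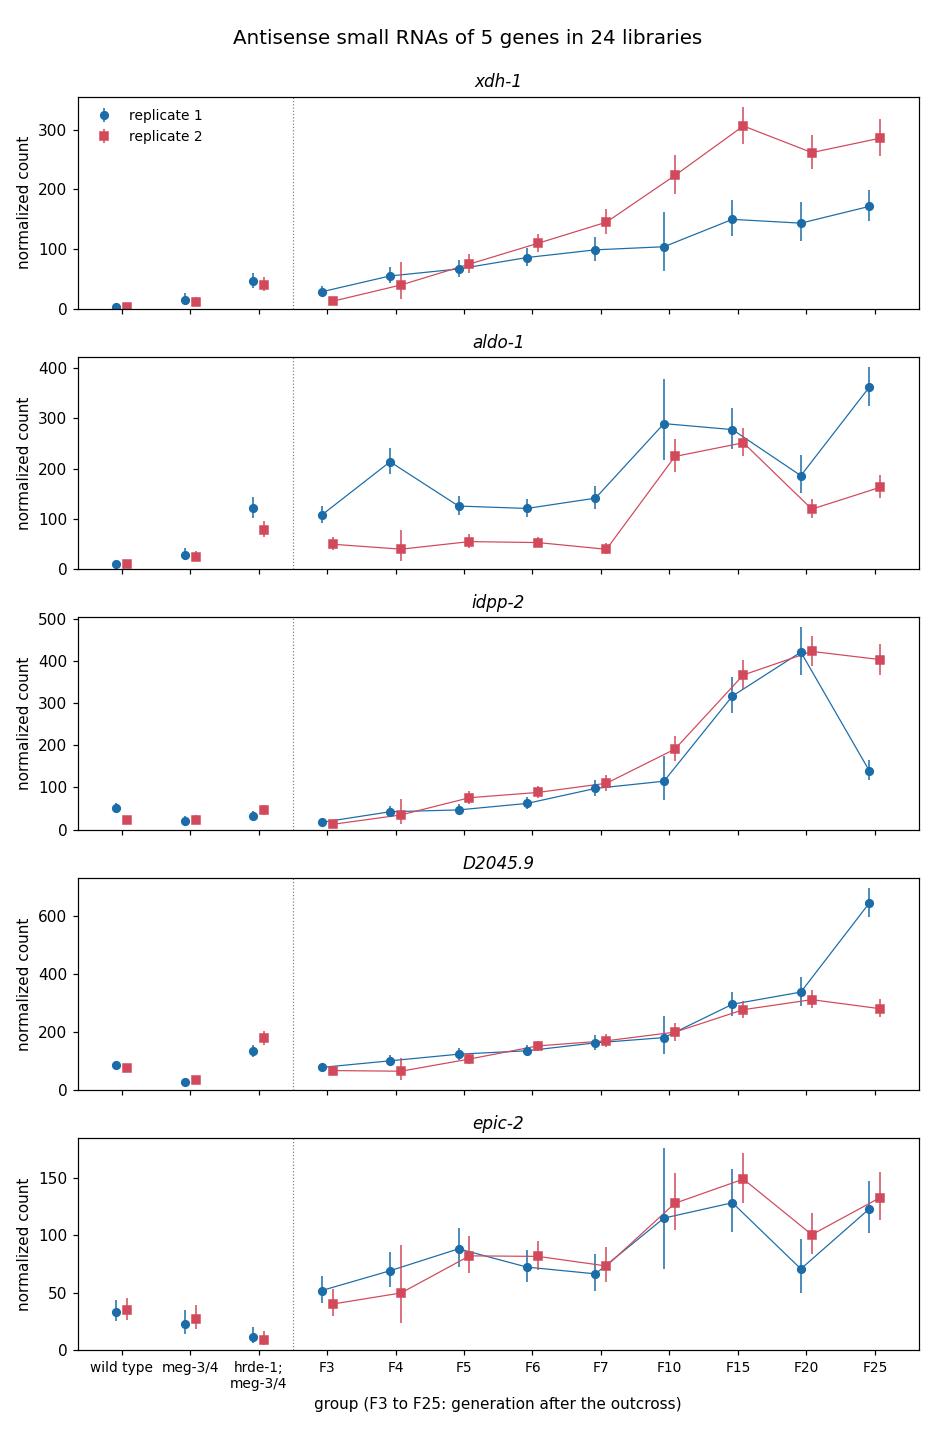
Normalized antisense small RNA counts (linear axis from 0, scaled for each gene) in the 24 libraries, with 1 panel per gene; blue circles are replicate 1, red squares replicate 2, bars give the 95% Poisson interval of the reads, lines join descendant libraries with the same number, and the generations are evenly spaced, not to scale. xdh-1 goes from 2.89 and 3.50 in wild type to 171.4 and 285.7 at F25, and the aldo-1 circles stay above the squares in all 9 generations.

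The other 3 genes had small RNAs in wild type already. For idpp-2 the wild-type libraries were at 52.1 and 22.2, and F3, at 17.3 and 12.6, was below both. Values were 42.5 and 34.9 in F4, 46.8 and 75.7 in F5, 62.2 and 88.3 in F6, and 97.8 and 109.9 in F7. F6 was thus the first generation with both libraries above all 6 wild-type and mutant libraries, and 13 of 18 descendant libraries were above them. Later values were 114.8 and 190.9 in F10, 316.7 and 366.8 in F15, 420.9 and 422.6 in F20, and 139.4 and 403.1 in F25. Replicate 1 therefore stood lower at F25 than at F15 or F20, and its 95% Poisson interval at F25, 116.9 to 165.0, did not reach that of replicate 2, 367.8 to 441.0 (counting error only). The F25 mean was 7.30 times wild type (log2 2.62, SE 0.38) and 18.1 times F3, the widest of the 5 ratios to F3. The log2 difference from wild type was 3.37 without F25 replicate 1, 1.87 without F25 replicate 2, 3.16 without wild-type replicate 1 and 2.09 without wild-type replicate 2.

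For D2045.9 wild type was at 85.7 and 76.5 and F3 at 77.9 and 67.1, so these groups overlapped. F4 was at 100.6 and 64.9, F5 at 123.4 and 106.8, F6 at 135.2 and 152.0, F7 at 162.4 and 169.5, and F10 at 180.4 and 199.3. The triple mutant was at 133.3 and 177.4, and F10 was the first generation with both libraries above it. F15 was at 295.1 and 276.5, F20 at 337.1 and 311.0, and F25 at 643.3 and 279.8. The replicates lay close together from F5 to F20, whereas at F25 replicate 1 alone was far above every earlier library, with Poisson intervals of 593.8 to 695.9 and 250.4 to 311.6. The F25 mean was 5.69 times wild type (log2 2.32, SE 0.26), and the log2 difference was 1.73 without F25 replicate 1 and 2.92 without F25 replicate 2.

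For epic-2 wild type was at 33.6 and 35.0 and F3 at 52.0 and 40.3, above both. It then ran between 49.9 and 88.2 from F4 to F7 and was at 114.8 and 127.7 in F10, 128.1 and 148.6 in F15, 70.8 and 100.5 in F20, and 122.9 and 132.7 in F25. All 18 descendant libraries were above the 6 wild-type and mutant libraries. This gene had the smallest difference from wild type of the 5 at F25, 3.73 times (log2 1.76, SE 0.19), and the narrowest spread between the F25 replicates (127.8 ± 6.94, SD, n = 2).

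Per kilobase of exon, wild-type levels were 0.770 normalized counts for xdh-1, 8.35 for aldo-1, 15.4 for epic-2, 27.3 for idpp-2 and 30.1 for D2045.9, against a median of 41.9 over the 7803 compared protein-coding genes. Only 0.615% of those genes were below xdh-1 in wild type, whereas 39.3% were below D2045.9. Against wild type alone, the word new thus fits xdh-1, less so aldo-1 (14.7% below), and not the other 3. Against meg-3/4, the strain that was outcrossed, its fit is less clear. There xdh-1 was already at 15.5 and 10.8, from 14 and 11 reads, and aldo-1 at 28.8 and 24.5. Both genes were above wild type, as were 31.7% of all features. Of the compared protein-coding genes, 7.74% were below xdh-1 in meg-3/4 and 37.6% below aldo-1. The xdh-1 value in F3 replicate 2, 12.6, lay between the meg-3/4 libraries. At F25 the means per kilobase were 209.7 for aldo-1, 199.6 for idpp-2, 171.3 for D2045.9, 57.3 for epic-2 and 55.0 for xdh-1, and the median of all was 39.3. The single F25 libraries of aldo-1 (289.3 and 130.2 per kilobase), idpp-2 (102.6 and 296.6) and D2045.9 (238.8 and 103.8) overlapped one another, and those of epic-2 (55.1 and 59.4) lay between those of xdh-1 (41.3 and 68.8). Each library of the first 3 genes was above each library of the last 2. By the F25 mean, xdh-1 was thus above 61.9% of the compared protein-coding genes and aldo-1 above 92.5%.

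As background for the choice of the genes, both F25 libraries were above all 6 wild-type and mutant libraries for 455 features (5.13% of those compared), and at least 2-fold above for 15 (0.169%). The choice used these values, so nothing is read from the genes' own place in the count. idpp-2, xdh-1 and epic-2 are among the 15, with their lower F25 library at 2.68, 3.73 and 3.51 times the highest of the 6. D2045.9 (1.58 times) and aldo-1 (1.34 times) lie outside it, since the triple mutant was already high at both.

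The replicates of a generation were compared across the 9 descendant generations, a difference that the levels used to pick the genes do not fix. The test takes these generations as independent, which the labels do not show, so its p-values do not measure how lines vary. Small RNAs against aldo-1 were lower in replicate 2 than in replicate 1 in 9 of 9 generations, by a log2 difference of −1.06 (SE 0.17, limma adjusted p = 0.00312), and this difference had been seen in these data before the genes were chosen, so it is not independent evidence. The mean gap was −1.46 in F3 to F7 and −0.56 in F10 to F25, but at F25 it was −1.13, against −1.04 at F3. The widest gap, −2.28 at F4, rests on 8 reads in replicate 2. Of all features compared, 2.07% differed between the replicates (109 higher and 75 lower in replicate 2, or 1.23% and 0.846%, and 148 and 38 with equal library totals), and 0.834% had replicate 1 above replicate 2 in all 9 generations. The call at aldo-1 was lost when weakly covered features were kept in the test (adjusted p = 0.18).

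The other 4 genes did not pass this test. xdh-1 was higher in replicate 2 in 7 of 9 generations (log2 0.37, SE 0.17, adjusted p = 0.379), with a mean difference of −0.06 in F3 to F7 and of 0.91 (0.72 to 1.07) in F10 to F25, and edgeR's quasi-likelihood test on the reads did call it (0.54, adjusted p = 0.0244). idpp-2 differed by 0.35 (SE 0.15, adjusted p = 0.327), D2045.9 by −0.23 (SE 0.11, adjusted p = 0.432) and epic-2 by 0.04 (SE 0.09, adjusted p = 0.908), also in limma. The slope of the log2 level on generation number was then compared between the replicate series. None of the 5 passed (adjusted p 0.868 to 0.910; 14 features or 0.158% did, and 563 at an unadjusted p under 0.05), and the 5 did not pass under any alternative run, edgeR and DESeq2 included. The xdh-1 slope difference was 0.06 log2 units per generation (SE 0.04), and a p that misses the threshold does not show that the slopes were alike.

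**Figure D2:**
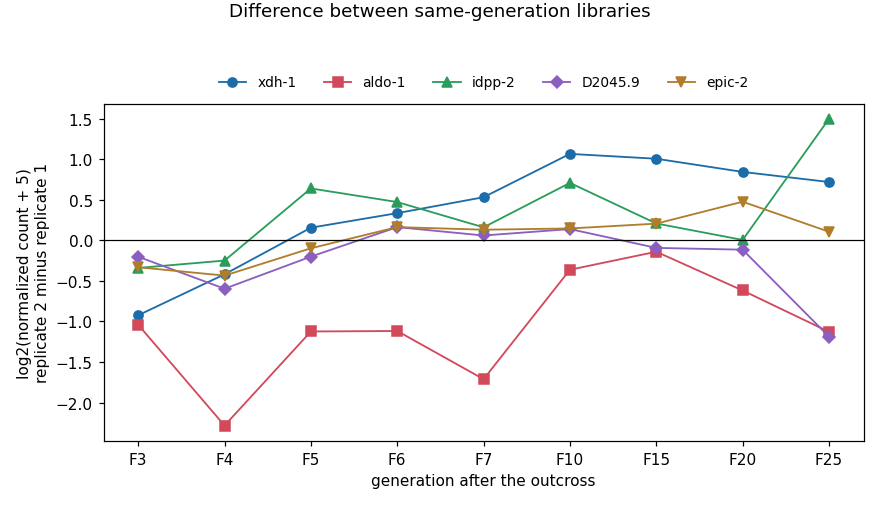
Difference of log2(normalized count + 5) between replicate 2 and replicate 1 within each descendant generation, with 1 line per gene, single libraries and no error bars, and 0 marked by a horizontal line; the generations are evenly spaced, not to scale. The aldo-1 squares are below 0 in all 9 generations, and the xdh-1 circles lie between 0.72 and 1.07 from F10 on.

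Both mutants were set beside wild type, again as a description. In meg-3/4 the values were 15.5 and 10.8 for xdh-1 and 28.8 and 24.5 for aldo-1, above both wild-type libraries in each case, an order held by 31.7% of all features. They were 27.7 and 34.4 for D2045.9 and 23.2 and 27.5 for epic-2, below both wild-type libraries, as for 36.7% of all features. For idpp-2 they were 21.0 and 22.6, overlapping wild type.

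The triple mutant was compared with meg-3/4, from which it differs by the loss of HRDE-1. Each genotype was a single strain, so other differences between the strains cannot be told apart from that loss. The choice of the genes used the levels of both mutants, as levels that F25 had to pass, but not the difference between them. Those levels were known when the genes were chosen, so the p-values and the count of calls for the 5 genes are not independent evidence. Small RNAs against D2045.9 rose from 27.7 and 34.4 to 133.3 and 177.4 (log2 2.15, SE 0.26, limma adjusted p = 3.19e-06), and those against xdh-1 rose from 15.5 and 10.8 to 45.9 and 40.2 (1.42, SE 0.39, adjusted p = 0.013). Small RNAs against epic-2 fell from 23.2 and 27.5 to 11.7 and 9.46 (−0.96, SE 0.19, adjusted p = 0.000909). aldo-1 was at 121.6 and 78.8 in the triple mutant against 28.8 and 24.5, without passing the test (1.71, SE 0.62, adjusted p = 0.0631), and idpp-2 at 31.5 and 45.7 against 21.0 and 22.6 did not pass either (0.68, SE 0.38, adjusted p = 0.259). In none of the 5 genes did the groups overlap, and the triple mutant was above meg-3/4 without overlap for 30.3% of all features and below it for 29.8%. So 2 of the 5 genes were called higher and 1 lower, where 10.6% of all features were higher and 8.63% lower (938 and 765, and 1408 and 439 with equal library totals, a scaling that moves the median of all features by 0.21). The xdh-1 call is fragile: it was lost without triple-mutant replicate 1 (adjusted p = 0.089) or 2 (0.0511), without meg-3/4 replicate 2 (0.111) and with a pseudocount of 20 (0.0571). The aldo-1 difference passed with equal library totals (0.0209) and without F4 replicate 2 and F10 replicate 1, the shallow libraries that enter the shared spread (0.0248).

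**Figure D3:**
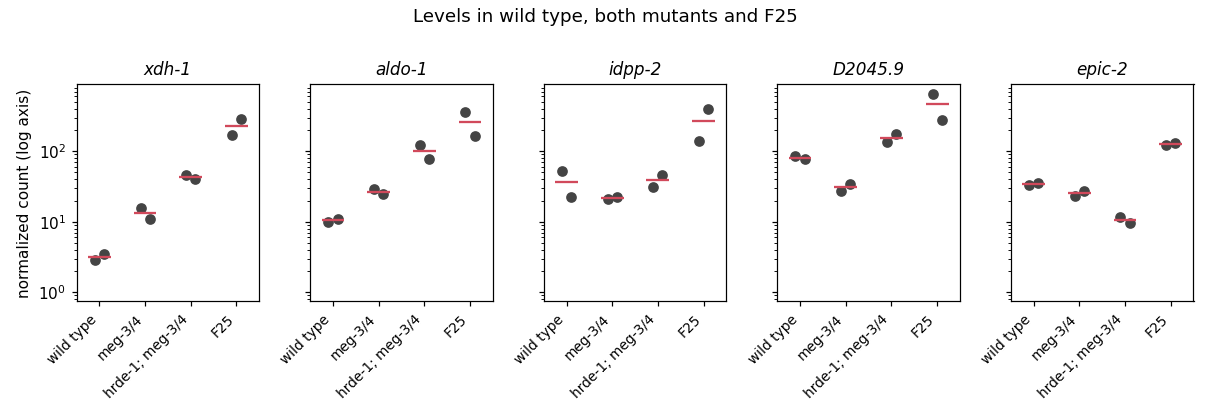
Normalized antisense counts (log axis) of the 5 genes in the wild-type, meg-3/4, triple-mutant and F25 libraries; each point is 1 library, 2 per group, and red lines mark group means. In the triple mutant xdh-1, aldo-1 and D2045.9 are above meg-3/4 and epic-2 is below it, and both F25 libraries are above all 6 others for each gene.

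Genes next to the 5 were tested at F25 against wild type, where 1.05% of all features were called (56 or 0.631% higher and 37 or 0.417% lower, and 29 and 58 with equal library totals, which moves the median of all features from −0.04 to −0.18). Of the 29 annotated features nearest to the 5 genes in order of start position, 3 before and 3 after where the chromosome allows, 28 are in the table and 11 had enough small RNA to test. None of these 11 was called by limma, edgeR or DESeq2, and 2 had an unadjusted p under 0.05, as had 840 or 9.47% of all features. Their log2 differences ran from −0.38 at scav-2, a scavenger receptor gene beside aldo-1, to 0.55 at ife-3. For xdh-1 all 6 are piRNA genes at the low-coordinate end of its span, 5 of them overlapping it, with too few reads to test, so the 3 nearest protein-coding genes on each side were taken as well for each gene, a choice made after the data were seen.

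None of the 14 genes tested in that wider set was called either, with 3 at an unadjusted p under 0.05 (9.47% of all features). F55B11.6, the next coding gene after xdh-1 toward higher coordinates, was at 648.8 and 691.3 in wild type and at 161.1 and 444.6 in F25, without overlap, but did not pass (−1.30, SE 0.59, limma adjusted p = 0.469). cul-1, a cullin gene directly before D2045.9, was at 219.4 and 206.7 in wild type and at 203.4 and 205.4 in F25. ife-3, which overlaps the end of idpp-2, was at 150.5 and 131.4 in wild type and 159.0 and 273.8 in F25 (adjusted p = 0.176). Replicate 2 was thus the higher F25 library at both ife-3 and idpp-2, and without F25 replicate 1 ife-3 was called (0.94, adjusted p = 0.00275). Whether the overlap has a part in this was not tested.

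**Figure D4:**
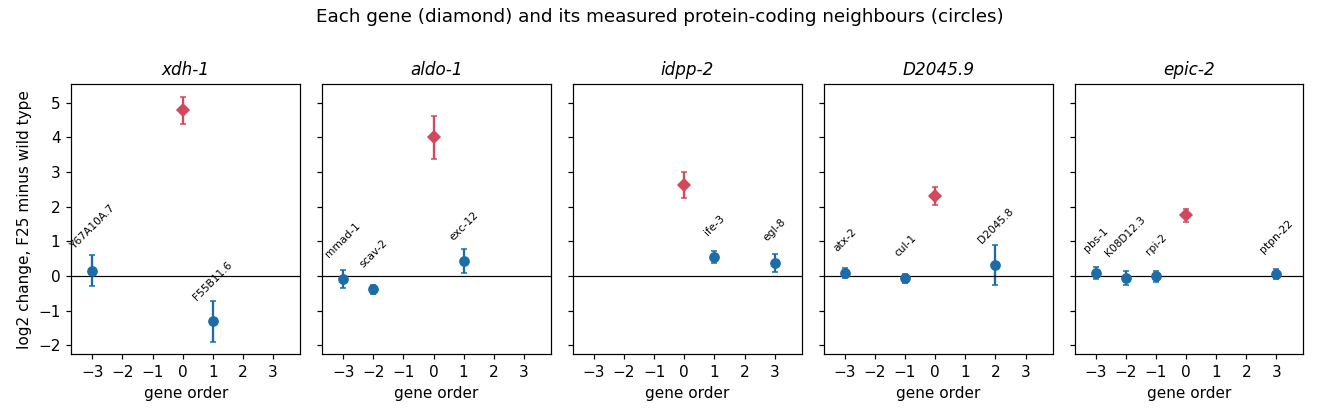
Log2 difference of F25 from wild type (limma fit on log2(value + 5), bars give the SE) for the 5 genes (red diamonds) and the tested ones of the 3 nearest protein-coding genes on each side (blue circles), placed by gene order along the chromosome. The 5 genes stand between 1.76 and 4.79, and the tested neighbours between −1.30 (F55B11.6) and 0.55 (ife-3).

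The relatives of the enzymes were not called at F25 against wild type. aldo-2, the other fructose-bisphosphate aldolase gene, was at 189.8 and 209.6 in wild type, 204.5 and 195.2 in F25 and 139.7 to 264.1 over the 18 descendant libraries (F25 against wild type 0.00, SE 0.19, limma adjusted p = 0.999). F15E6.6, taken here as the relative of xdh-1, was at 6.37 and 5.26 in wild type and 2.07 and 4.23 in F25 (−0.42, SE 0.45, adjusted p = 0.836).

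In a list of 23 glycolysis and gluconeogenesis genes, 18 besides aldo-1 could be tested. At F25 0 were higher and 1 was lower than wild type, pyk-1, a pyruvate kinase gene, from 356.5 and 675.0 to 214.8 and 169.9 (−1.34, SE 0.22, limma adjusted p = 0.00255). The pyk-1 call was lost on leaving out replicate 2 of F25 (adjusted p = 0.0609) or of wild type (0.0655). The median log2 difference of the 18 was −0.04, equal to that of all features. Between the mutants the glyceraldehyde-3-phosphate dehydrogenase genes gpd-1 (0.75, adjusted p = 0.000716) and gpd-4 (0.73, adjusted p = 0.00811) rose in the triple mutant. That is 2 of 18, near the 10.6% of all features called higher, and these near-identical genes may share reads, so they cannot be counted as separate.

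In a list of 22 purine and molybdenum cofactor genes, 18 were found by symbol and 10 besides xdh-1 could be tested. None differed between F25 and wild type by limma, edgeR or DESeq2, and 0 had an unadjusted p under 0.05 (median 0.05). Between the mutants moc-2, needed to make the molybdenum cofactor that xanthine dehydrogenase carries, rose from 6.64 and 3.93 in meg-3/4 to 217.0 and 249.1 in the triple mutant (4.54, limma adjusted p = 1.65e-08). It was the 1 gene of 10 called, near the 10.6% of all features, and it was at 7.23 and 5.07 in F25 against 14.5 and 7.01 in wild type. In a list of 11 collagen hydroxylation and glycosylation genes, 2 besides D2045.9 could be tested, and neither was called, with 1 at an unadjusted p under 0.05 (9.47% of all features).

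The 5 genes were compared with all others by the shape of their levels over the 12 group means, on the log2(value + 5) scale, as a description in which all features share the same libraries. Among the 5 themselves, the 10 pairwise Pearson correlations ran from 0.61 (D2045.9 with epic-2) to 0.91 (xdh-1 with aldo-1). Among 6496 features with a mean of at least 20 in F25, the nearest to xdh-1 outside the 5 were WBGene00018416 (r = 0.89), T25D3.3 (0.89), nmy-1, a non-muscle myosin gene (0.87), set-9, a SET-domain gene (0.83), and C07G1.7 (0.83). The nearest to aldo-1 were C07G1.7 (0.93), sdc-2, a dosage compensation gene (0.84), set-9 (0.82), seld-1, a selenophosphate synthetase gene (0.82), and ife-5, an eIF4E isoform gene (0.81).

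A like shape did not mean a like size. C07G1.7 averaged 0.289 in wild type, 16.5 in meg-3/4, 21.8 in the triple mutant, 22.8 in F3, 70.2 in F10 and 39.0 in F25. It thus shared with xdh-1 a wild-type level near 0 and values in both mutants above it. T25D3.3 averaged 4.36 in wild type, 1.49 in F3 and 30.2 in F25. seld-1 averaged 82.8 in wild type, 77.5 in meg-3/4, 903.5 in the triple mutant, 1738 in F3 and 1585 in F25, so its small RNAs were already near their highest at F3. set-9 averaged 587.8 in wild type and 767.9 in F25.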

How the data were processed

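The authors deposited 1 table of signal values, which are DESeq2-scaled small RNA read counts per gene for the 24 libraries. The submitters' processing notes name cutadapt, Bowtie, featureCounts and DESeq2, with versions, genome build, annotation and strand setting not given in the sources used here. Per the labels' protocols, RNAs of about 15 to 30 nucleotides were size-selected on a gel, then treated with a phosphatase and a kinase so that 5′-triphosphate RNAs could be cloned, and no molecular identifiers are described, so Poisson intervals cover counting error only.

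All 386038 values above 0 came out as whole reads within 0.01 after division by 1 unit per library. Recovered reads were 392785 to 3420345 per library. All columns matched a sample. Symbols and positions came from Ensembl release 115 (WBcel235).

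The filter kept 8869 features, those reaching 10 normalized counts in 2 or more libraries. Differences were tested with limma 3.58.1 (R 4.3.3, intensity trend) on log2(value + 5), two-sided, and p-values were adjusted by Benjamini and Hochberg's method over all 8869, with a threshold of 0.05. Comparisons between groups used 1 fit over 12 groups, so 12 residual degrees of freedom were shared. The replicate comparison used the 18 descendant libraries with generation as a factor, and the slope comparison used generation number times replicate. The fits were checked on simulated data with known changes in well covered features. Of 2-fold changes, 58% were found for F25 against wild type, 76% between the mutants, 100% between replicates and 13% for slopes. Of 4-fold changes, 91% were found for slopes and 100% in the other comparisons. The simulated spread was set in advance and not taken from these libraries, so these shares need not hold in the data. edgeR 4.0.16 (quasi-likelihood) and DESeq2 1.42.0 on the recovered reads, other scalings, pseudocounts and filters, a replicate block and leaving out libraries were alternatives, and on the reads edgeR called 223 features between F25 and wild type where limma called 93.

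The labels call the replicates biological and say nothing more of separate cultures, so the p-values cover only how these samples vary. Descendant libraries may not be independent, since later ones may derive from earlier ones. The 5 genes and the gene lists were chosen with earlier results of these data known. Named besides them were, by rule, the 5 features nearest in shape to xdh-1 and to aldo-1, flanking features, aldo-2 and F15E6.6, and called list members. Genes named outside this rule, T25D3.3 near the other genes and the features in the closing section among them, were chosen after their values were seen. Sequences are not used here.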

Additional observations from a re-analysis of the deposited data

How the results depend on the processing

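Each group had 2 libraries, so single libraries carry much of a difference, and F4 replicate 2 and F10 replicate 1 were shallow. The log2 difference of F25 from wild type was 5.73 for xdh-1 with a pseudocount of 1, and with 20 it was 3.38 for xdh-1, 3.12 for aldo-1, 2.24 for idpp-2 and 1.44 for epic-2. Leaving out 1 library moved it between 1.87 and 3.37 for idpp-2 and between 1.73 and 2.92 for D2045.9. The features called between replicates, 184, were 19 with no filter, 362 by edgeR, and 277, 108, 83 and 83 without F4, F5, F6 or F7. Features with a slope difference, 14, were 9 with a pseudocount of 1, 6 with no filter, 8 with equal library totals, 29 by DESeq2, 30 on log2 generation number, 9 without F3, F5, F7 or F15, 22 without F10, 5 without F20 and 8 without F25. The 93 features called between F25 and wild type were 223 by edgeR, 159 by DESeq2, 172 without the 2 shallow libraries and 48 to 75 when 1 F25 or wild-type library was left out. Judged on group means in place of single libraries, 1548 and not 455 features were higher at F25 than in wild type and both mutants. At least 2-fold, they were 69 and not 15. The earlier descendant generations did not enter these counts.

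Reversals were at values near 0: epic-2 between replicates without F20 (−0.013, adjusted p = 0.982), the D2045.9 slope difference without F25 (0.0101), and aldo-2 with equal library totals (−0.16), without F25 replicate 1 (−0.03) and without wild-type replicate 1 (−0.068, the range on leaving out 1 library being −0.068 to 0.072). The calls at D2045.9 and epic-2 between the mutants held under all 15 alternatives run (adjusted p up to 0.000227 and 0.025). The cause of the changes was not tested.

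The replicate numbers were not taken to pair the libraries, since no label says so and not every correlation was above 0.1, although most were: over 36 pairs of descendant groups, deviations of same-numbered libraries correlated at −0.05 to 0.47 (median 0.14, 22 above 0.1), and meg-3/4 with the triple mutant at 0.20. With the replicate number as a block, 1811 features were called between the mutants (1703 without it), aldo-1 among them (adjusted p = 0.00329), and 136 between F25 and wild type (93 without it).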

Other observations

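Besides idpp-2, xdh-1 and epic-2, 12 features had both F25 libraries at least 2-fold above all 6 wild-type and mutant libraries. They comprise 9 protein-coding genes, 2 pseudogenes and 1 antisense RNA, were chosen after their values were seen, and are given without a test. vhl-1, which encodes the von Hippel-Lindau protein, was at 23.2 and 21.0 in wild type, 4.50 and 2.37 in the triple mutant and 64.0 and 104.0 in F25. F19B2.6 was at 144.7 and 147.7 in wild type, 16.2 and 15.8 in the triple mutant and 390.3 and 341.4 in F25. K09F6.6 was at 53.8 and 37.4 in wild type, 2.70 and 0.788 in the triple mutant, the latter from 1 read, and 154.9 and 146.2 in F25. pek-1, which encodes the PERK kinase of the unfolded protein response, was at 35.3 and 30.4 in wild type, 29.7 and 26.8 in the triple mutant and 102.2 and 86.2 in F25. The mean at vhl-1 was 176.9 in F10, 135.5 in F15 and 102.6 in F20, so its highest generation of these was not the last.

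The features nearest in shape to the other 3 genes overlapped in part. T25D3.3 was among the 5 nearest to xdh-1, idpp-2 and D2045.9 (r = 0.89 to 0.94 over 12 group means), and the nearest to epic-2 was the pseudogene WBGene00012572 (0.96).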
